A study of Mus musculus with 8 samples.

Results

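The genes described here encode integrin chains and the proteins that activate integrins or tie them to actin filaments at adhesion sites. The 34 genes were chosen by name from what their products do, with earlier results of these data known. Each was found among the 15853 genes of the authors' deposited table. They comprise 8 alpha chains, 5 beta chains, 3 activators, 5 genes of the complex of integrin-linked kinase, PINCH and parvin, 5 kinases and scaffold proteins, and 8 actin linkers and tensins. Of the 34 genes, 5 were called higher and 9 lower in knockout macrophages.

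Poly(A) RNA of bone marrow-derived macrophages was sequenced in 8 libraries, 4 from control and 4 from knockout mice. Both groups carried Mirc11fl/fl and Mirc22fl/fl, floxed alleles of the 2 miRNA clusters that give rise to the families of miR-23, miR-24 and miR-27, the controls with Lyz2+/+ and the knockouts with Lyz2Cre/Cre. Cre recombinase was thus driven from both copies of Lyz2, a myeloid gene, so loss of the clusters cannot be told apart from the presence of Cre or the loss of Lyz2. Cells of both groups were grown for 7 days in L929 conditioned medium, a source of the growth factor M-CSF, and then exposed to 250 uM palmitate (C16:0), 25 mM glucose and 10 nM insulin over 24 h. The series' design gives 4 biological replicates per genotype but ties no library to an animal, so the p-values speak of the spread among these 8 libraries.

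An integrin is a pair of an alpha and a beta chain that spans the membrane, binds matrix proteins or counter-receptors outside the cell, and switches between a bent, inactive and an extended, active form. Talin and a kindlin bind the tail of the beta chain and activate it, and paxillin, vinculin, alpha-actinin, filamin and the complex of integrin-linked kinase then link it to actin, while focal adhesion kinases and Src relay the signal. Macrophages use integrins to hold on to matrix, to migrate, to take up opsonized or dying cells and to build podosomes, which are small actin-rich contacts. Leukocytes carry their own forms of several of these proteins, among them CD18, kindlin-3, gamma-parvin and Pyk2.

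No value of a single library was used. Each gene is given by its derived group means, by the authors' log2 fold change (knockout over control) with its standard error (SE), and by the authors' adjusted p, with a gene called where this was under 0.05. Group means are in normalized counts and follow from the authors' mean over all libraries and the fold change. The sign was read from Lyz2, which carries the Cre insertion, at 511449 normalized counts in control and 935 in knockout. Depth per library is unknown here. In bulk RNA, fewer cells of a type and less RNA per cell cannot be told apart.

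The label macrophage was checked against markers. Csf1r (mean normalized count 163291), Adgre1 (144462) and Cd68 (104490) were abundant, and of the T cell markers Trac, Cd8a and Lck had means of 2.54, 5.72 and 11.4, while Cd4 had a mean of 1540. Of 10 macrophage markers, 1 was called higher in the knockout, 5 lower and 4 not called. The 1 higher was Adgre1, at 0.25 (SE 0.07) per the authors' deposited table. Among those lower were Lyz2, which carries the Cre insertion, and Cx3cr1. Cx3cr1, a chemokine receptor with a mean of 180, was at -1.20 (SE 0.31) per the authors' deposited table. Of 17 fibroblast and stromal markers measured, 16 were called higher and 0 lower. Their median log2 fold change was 1.86, and their summed level was 2605 normalized counts in control and 9405 in knockout. Postn (periostin) was at 1.86 (SE 0.22) and Acta2 (smooth muscle actin) at 1.43 (SE 0.18) per the authors' deposited table. The part of these stromal markers in the results below was not tested. Of 4 endothelial markers measured, 2 were called higher (Pecam1, 0.82, SE 0.23) and 1 lower (Kdr, -1.30, SE 0.19) per the authors' deposited table. Ctsk was the 1 osteoclast marker called, at -0.44 (SE 0.16), and Gata2 (mean 12.4) the 1 mast cell and basophil marker, at 2.26 (SE 0.62), per the authors' deposited table. Few markers of other types had an adjusted p: 3 megakaryocyte, 2 neutrophil, 3 T cell, 2 B cell and 3 dendritic cell genes. Of these, 0 were called.

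Of the 34 genes 14 (41.2%) were called, where 23.0% of the 14619 genes with an adjusted p-value were. Calls higher numbered 5 against 11.3% of all genes tested, and calls lower 9 against 11.7%. The median log2 fold change of the 34 was -0.11, close to the -0.00 of all genes tested, and 21 of the 34 values were negative. The genes that were called higher and those called lower differed in abundance, with median mean normalized counts of 86.8 and 10946. The same medians over all called genes were 371 for those higher and 2882 for those lower. Each of the 3 adhesion genes with a mean under 100 was called higher, and of all 3677 genes tested in that range 14.5% were called higher and 0.952% lower. Among the 15 adhesion genes with a mean of at least 10000, 0 rose and 5 fell, while of all 1413 genes there 120 (8.49%) rose and 283 (20.03%) fell. Among the 14 adhesion genes with a mean from 1000 to under 10000, 1 rose and 3 fell. For all 6279 genes in that range the shares were 8.06% and 17.1%. The 11.7% given here and below is thus lower than the share of falls among genes as abundant as most of the 34. Other settings gave fewer or equal numbers of calls. Centring on summed group means gave 5 of the 34 higher and 6 lower, against 16.0% and 6.57% of all genes (22.6% in all), and centring on the median of all genes gave 5 and 9 against 11.5% and 11.3% (22.8% in all). Without a filter on the mean it was 5 and 8 against 10.1% and 10.5% (20.6% in all), and with a mean of at least 50 it was 5 and 9 against 11.3% and 15.2% (26.5% in all). At an adjusted p under 0.01 it was 4 and 6 against 7.16% and 6.90% (14.1% in all).

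**Figure D1:**
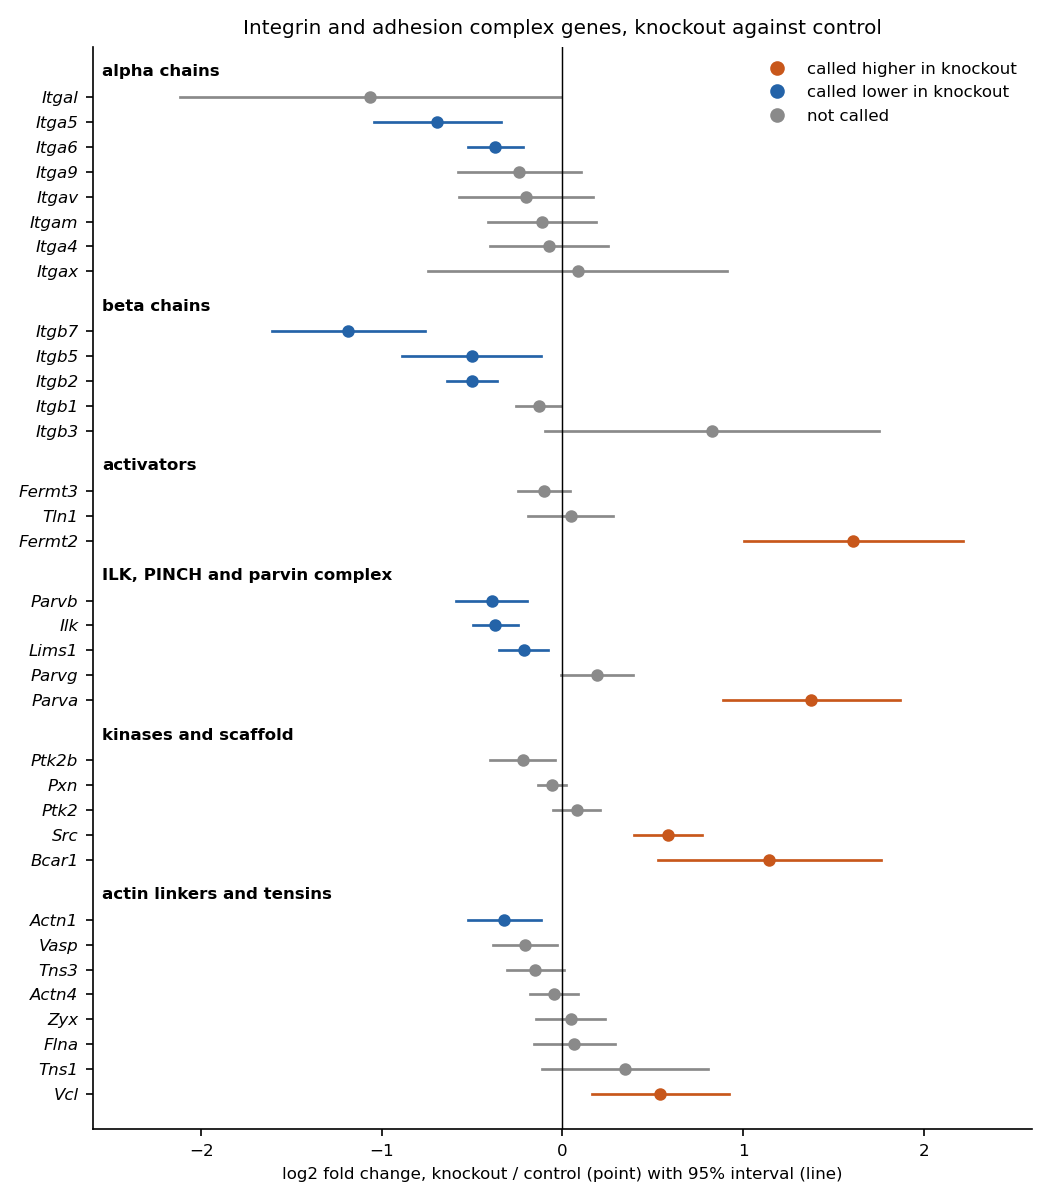
Log2 fold change of each of the 34 genes, knockout over control (points), with its 95% interval (lines), grouped by role. The 3 largest rises are Fermt2, Parva and Bcar1, the largest called fall is Itgb7, and the intervals of Itgal, Itgb3 and Itgax are the widest.

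Expression levels are compared between genes only per kb of the longest annotated transcript. In control cells Itgb2, the beta chain CD18 of the leukocyte integrins, was the most abundant at 24342 normalized counts per kb, followed by Itgb1 (CD29) at 15093, Itgam (CD11b) at 13220 and Fermt3 (kindlin-3) at 12082. The least abundant were Bcar1 at 9.92, Fermt2 at 9.80 and Parva at 8.22 normalized counts per kb. On this scale 26 of the 34 genes lay at or above the median of all genes tested. The 3 lowest genes thus stood more than an order of magnitude under the next, Itgb3, at 141 normalized counts per kb. No error can be given for these levels, since values of single libraries were not used, so the order of close neighbours is not tested.

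**Figure D2:**
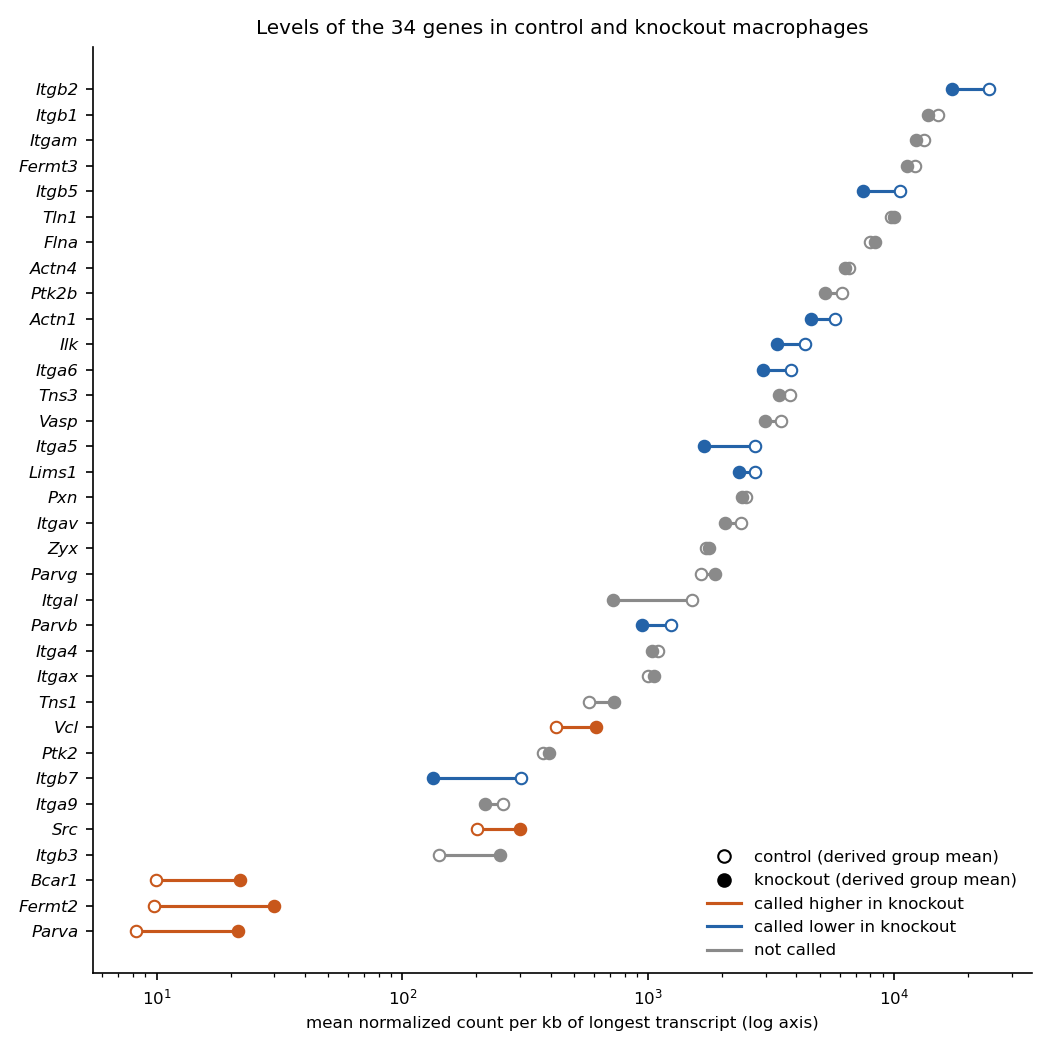
Level of each of the 34 genes per kb of longest transcript (log axis) in control (open points) and knockout cells (filled points), both as derived group means. Itgb2 is highest in control at 24342 and falls to 17182 in knockout, while Bcar1, Fermt2 and Parva stay under 30 in both.

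Among the beta chains, 3 of 5 were called lower and 0 higher, beside 11.7% and 11.3% of all genes tested. Itgb2 (chr10:77530252-77565708, mm10) had 72294 normalized counts in control and 51029 in knockout. The fold change on the log2 scale, -0.50 (SE 0.07, adjusted p = 1.01e-10), had the smallest adjusted p of the 34 per the authors' deposited table. Itgb7 (chr15:102215995-102231944), which joins CD49d into a receptor for homing to the gut, had 811 normalized counts in control and 357 in knockout. At -1.19 (SE 0.22, adjusted p = 1.34e-06) it showed the largest called fall per the authors' deposited table, equal to 0.44 times the control level. Itgb5 (chr16:33829665-33949338) pairs with CD51 to bind vitronectin and takes part in the uptake of dying cells. It had 34570 normalized counts in control and 24391 in knockout, a difference of -0.50 (SE 0.20, adjusted p = 0.0467) per the authors' deposited table. The call of Itgb5 was lost without a filter on the mean (adjusted p = 0.0506) and after centring on summed group means (0.0898), the latter the highest of its alternatives and 0.0418 the lowest.

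The other 2 beta chains were not called. Itgb1, the partner of most alpha chains here, had 57581 normalized counts in control and 52527 in knockout, which is -0.13 (SE 0.06, adjusted p = 0.112) on the log2 scale per the authors' deposited table. Its 95% interval of -0.26 to -0.01 leaves little room for a large change. Itgb3 (CD61), which with CD51 forms the vitronectin receptor of osteoclasts, had 813 normalized counts in control and 1445 in knockout. With a value of 0.83 (SE 0.47, adjusted p = 0.198) per the authors' deposited table, its 95% interval ran from -0.10 to 1.75, which holds both no change and a rise of 3.37-fold. Markers of osteoclasts gave 0 called higher and 1 lower of 6 in the same comparison, where 11.3% and 11.7% of all genes tested were. Any part of osteoclasts in the value of Itgb3 was not tested.

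Of the 8 alpha chains, 2 were called lower and 0 higher, where 11.7% and 11.3% of all genes tested were. Of the 8 fold changes 7 were negative, as were 7406 of the 14619 over all genes tested. Itga5 (chr15:103344286-103366763), which with CD29 forms the main fibronectin receptor, had 12010 normalized counts in control and 7429 in knockout. The difference, per the authors' deposited table, came to -0.69 (SE 0.18, adjusted p = 0.00134). Itga6 (chr2:71745616-71858416), a laminin receptor chain, had 16392 normalized counts in control and 12662 in knockout, at -0.37 (SE 0.08, adjusted p = 3.42e-05) per the authors' deposited table. Fibronectin itself (Fn1), the ligand of the Itga5 receptor, was called in the opposite direction, at 2.17 (SE 0.43) per the authors' deposited table.

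The alpha chains of the leukocyte integrins were not called, in contrast to their shared beta chain Itgb2, but the difference between these fold changes was not tested. Itgam, which forms the complement receptor Mac-1, had 61897 normalized counts in control and 57286 in knockout, at -0.11 (SE 0.15, adjusted p = 0.645) per the authors' deposited table. Itgal (CD11a), which forms LFA-1, the receptor for ICAM proteins, had 7828 normalized counts in control and 3741 in knockout. That is 0.48 times the control level, but with an SE of 0.54 it was not called (-1.07, adjusted p = 0.139, per the authors' deposited table). Itgax (CD11c) stood at 4020 and 4263 normalized counts, hence at 0.08 (SE 0.42, adjusted p = 0.914) per the authors' deposited table. Summed per kb, these 3 alpha chains came to 15713 in control and 14005 in knockout, and Itgam made up 84.1% and 87.4% of that sum. Itgb2 on its own stood at 24342 and 17182 normalized counts per kb.

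Among the remaining alpha chains, Itga4 (CD49d, a receptor for VCAM-1 and fibronectin) was at -0.07 (SE 0.17), Itga9, which binds tenascin, at -0.24 (SE 0.17), and Itgav (CD51, the chain that binds RGD ligands) at -0.20 (SE 0.19) per the authors' deposited table. Their adjusted p-values were 0.797, 0.331 and 0.47. The 95% intervals of these 3 lay within 1.5-fold either way, so larger changes are outside what the intervals hold. Summed over Itga4, Itga5, Itga6, Itga9 and Itgav, the alpha chains that can join Itgb1 came to 10243 normalized counts per kb in control and 7934 in knockout, and the share of Itga5 in that sum was 26.6% and 21.2%. These sums carry no error.

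The errors of the integrin chains varied widely. The SE of each gene was set against the median SE of the genes nearest to it in mean. This ratio had a median of 2.34 over the alpha chains and 1.87 over the beta chains, against 1.00 for all genes tested. It was 7.48 for Itgal and 5.66 for Itgax, which with Itgb3 had the widest intervals of the 34, while Itga6 (1.04), Itgb2 (0.865) and Itgb1 (0.785) were near or under 1. The called chains Itgb5 (2.68), Itga5 (2.44) and Itgb7 (1.87) lay above 1. The median was 1.01 for kinases and scaffold genes, 1.57 for integrin ligands and for macrophage markers, and 1.81 for stromal markers, so large errors were not particular to integrin chains. Which libraries carry this spread was not examined.

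**Figure D3:**
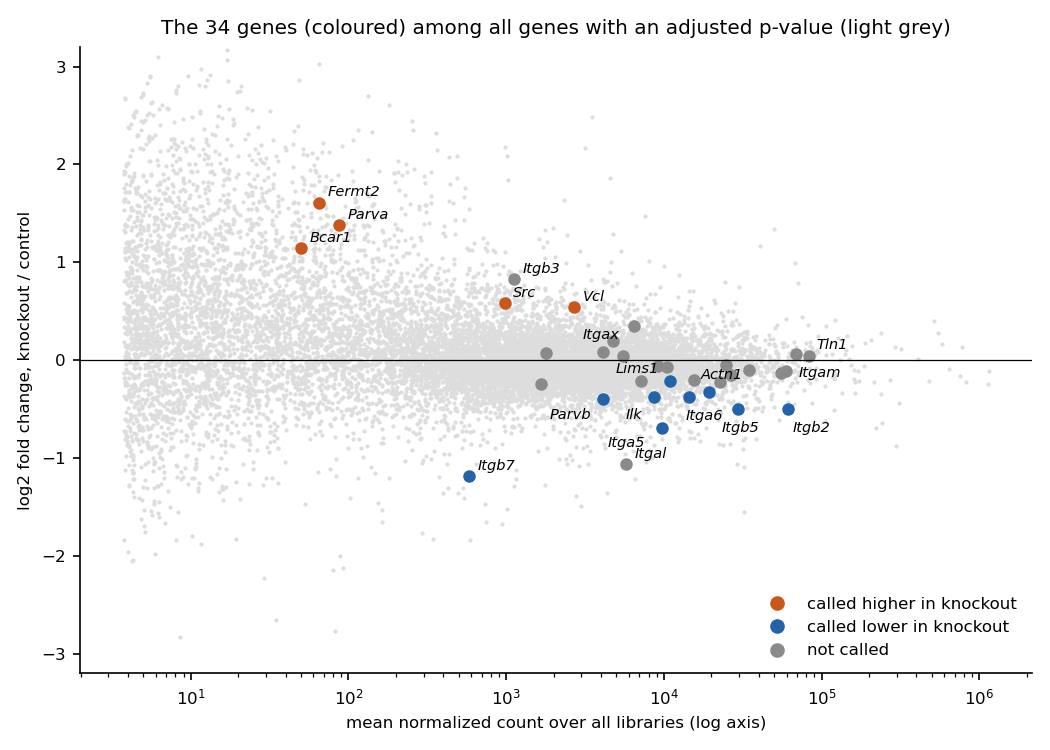
Log2 fold change against the mean normalized count (log axis) for the 34 genes (coloured by call) and for all genes with an adjusted p-value (light grey), of which 8 lie beyond the axis of 3.2 and are not drawn. The called falls sit to the right at high means, apart from Itgb7, and Fermt2, Parva and Bcar1 sit to the left above 1.

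Of the 3 activators 1 was called higher, the scarce one, and 0 lower, where 11.3% and 11.7% of all genes tested were. Tln1, talin 1, which unlocks the beta tail, had 81379 normalized counts in control and 83987 in knockout, at 0.05 (SE 0.12, adjusted p = 0.829) per the authors' deposited table. Fermt3, the kindlin of blood cells, had 36101 and 33589 normalized counts, at -0.10 (SE 0.07, adjusted p = 0.319) per the authors' deposited table. Fermt2 (chr14:45458795-45530118) encodes kindlin-2, the form of fibroblasts and muscle. It rose from 32.3 to 98.6 normalized counts, and at 1.61 (SE 0.31, adjusted p = 5.14e-06) per the authors' deposited table it was the largest rise among the 34, 3.05-fold with a 95% interval of 2.01 to 4.65. The stromal markers stood at 2605 and 9405 normalized counts in these groups. Per kb Fermt2 made up 0.0811% of the 2 kindlins in control and 0.266% in knockout.

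Of the 5 genes of the complex of integrin-linked kinase, 3 were called lower and 1 higher, where 11.7% and 11.3% of all genes tested were. Ilk (chr7:105736592-105742925), the pseudokinase at its core, had 9838 normalized counts in control and 7607 in knockout, at -0.37 (SE 0.06, adjusted p = 2.20e-07) per the authors' deposited table. Its exons overlap those of Taf10 and Rrp8 on the opposite strand, and the sources used here do not say if counting used strand. Lims1 (chr10:58323466-58424691), the adaptor PINCH-1, had 11763 and 10130 normalized counts, at -0.22 (SE 0.07, adjusted p = 0.0142) per the authors' deposited table. Centring on summed group means ended that call (adjusted p = 0.104), the highest of its alternatives, the lowest being 0.0125.

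The parvins, which join the kinase to actin, moved in different directions. Parvb (chr15:84232043-84315688) fell from 4691 to 3573 normalized counts, at -0.39 (SE 0.10, adjusted p = 0.00123) per the authors' deposited table. Parvg, the form of blood cells and its neighbour on the chromosome (chr15:84324026-84342978), had 4418 and 5048 normalized counts, at 0.19 (SE 0.10, adjusted p = 0.162) per the authors' deposited table. Parva (chr7:112427505-112591692), the form of mesenchymal cells, rose from 48.3 to 125 normalized counts, at 1.38 (SE 0.25, adjusted p = 1.26e-06) per the authors' deposited table. Per kb, Parvb went from 43.0% of the 3 parvins in control to 33.3% in knockout, Parvg from 56.7% to 65.9%, and Parva from 0.285% to 0.754%, while the sum stood at 2884 and 2835.

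Of the 5 kinases and scaffold proteins, 2 were called higher (Src and Bcar1) and 0 lower, where 11.3% and 11.7% of all genes tested were. Src (chr2:157418444-157471862), a tyrosine kinase that macrophages use in podosomes, rose from 785 to 1176 normalized counts. On the log2 scale this was 0.58 (SE 0.10, adjusted p = 5.78e-08) per the authors' deposited table, with a 95% interval of 1.31-fold to 1.71-fold. Bcar1 (chr8:111710474-111743809), the scaffold p130Cas that Src phosphorylates, rose from 31.2 to 69.0 normalized counts, at 1.15 (SE 0.32, adjusted p = 0.00278) per the authors' deposited table. Its relative Nedd9, the Cas protein of lymphocytes and myeloid cells, fell from 626 to 404 normalized counts, at -0.63 (SE 0.14, adjusted p = 7.19e-05) per the authors' deposited table.

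Focal adhesion kinase and paxillin were not called. Ptk2, which encodes focal adhesion kinase, was at 0.08 (SE 0.07, adjusted p = 0.422), and Ptk2b, which encodes Pyk2, at -0.22 (SE 0.09, adjusted p = 0.0642) per the authors' deposited table. Per kb, Ptk2b made up 94.2% of the pair in control and 93.0% in knockout. Pxn, paxillin, had the smallest SE of the 34 (-0.06, SE 0.04, adjusted p = 0.284, per the authors' deposited table), with 9384 normalized counts in control and 9012 in knockout. Its relative Lpxn, leupaxin of blood cells, was lower, at -0.40 (SE 0.09, adjusted p = 0.000233), per the authors' deposited table.

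Of the 8 actin linkers and tensins, 1 was called higher (Vcl) and 1 lower (Actn1), where 11.3% and 11.7% of all genes tested were. That is 25% called, near the 23.0% of all genes tested. Vcl (chr14:20929398-21033676), vinculin, which binds talin under tension, rose from 2210 to 3215 normalized counts, at 0.54 (SE 0.19, adjusted p = 0.0275) per the authors' deposited table. Its exons overlap those of Ap3m1 on the opposite strand. Actn1 (chr12:80167547-80260371), an alpha-actinin that crosslinks actin, fell from 21461 to 17172 normalized counts, at -0.32 (SE 0.10, adjusted p = 0.0116) per the authors' deposited table. It lost its call after centring on summed group means (adjusted p = 0.0508), the highest of its alternatives, the lowest being 0.0102. Its relative Actn4 had 25316 and 24494 normalized counts, at -0.05 (SE 0.07, adjusted p = 0.661) per the authors' deposited table.

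The other linkers were not called. Flna, filamin A, was at 0.07 (SE 0.12), Zyx, zyxin of actin bundles, at 0.04 (SE 0.10), and Vasp, which extends actin filaments, at -0.21 (SE 0.09, adjusted p = 0.0765) per the authors' deposited table. Tns3, the main tensin here with 86.6% of the tensin level per kb in control, was at -0.15 (SE 0.08), and Tns1 at 0.35 (SE 0.23) per the authors' deposited table. Of the 20 genes of the 34 that were not called, 16 had a 95% interval inside 1.5-fold either way. The intervals of Itgal, Itgax, Itgb3 and Tns1 reached further, so they hold changes larger than that.

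**Figure D4:**
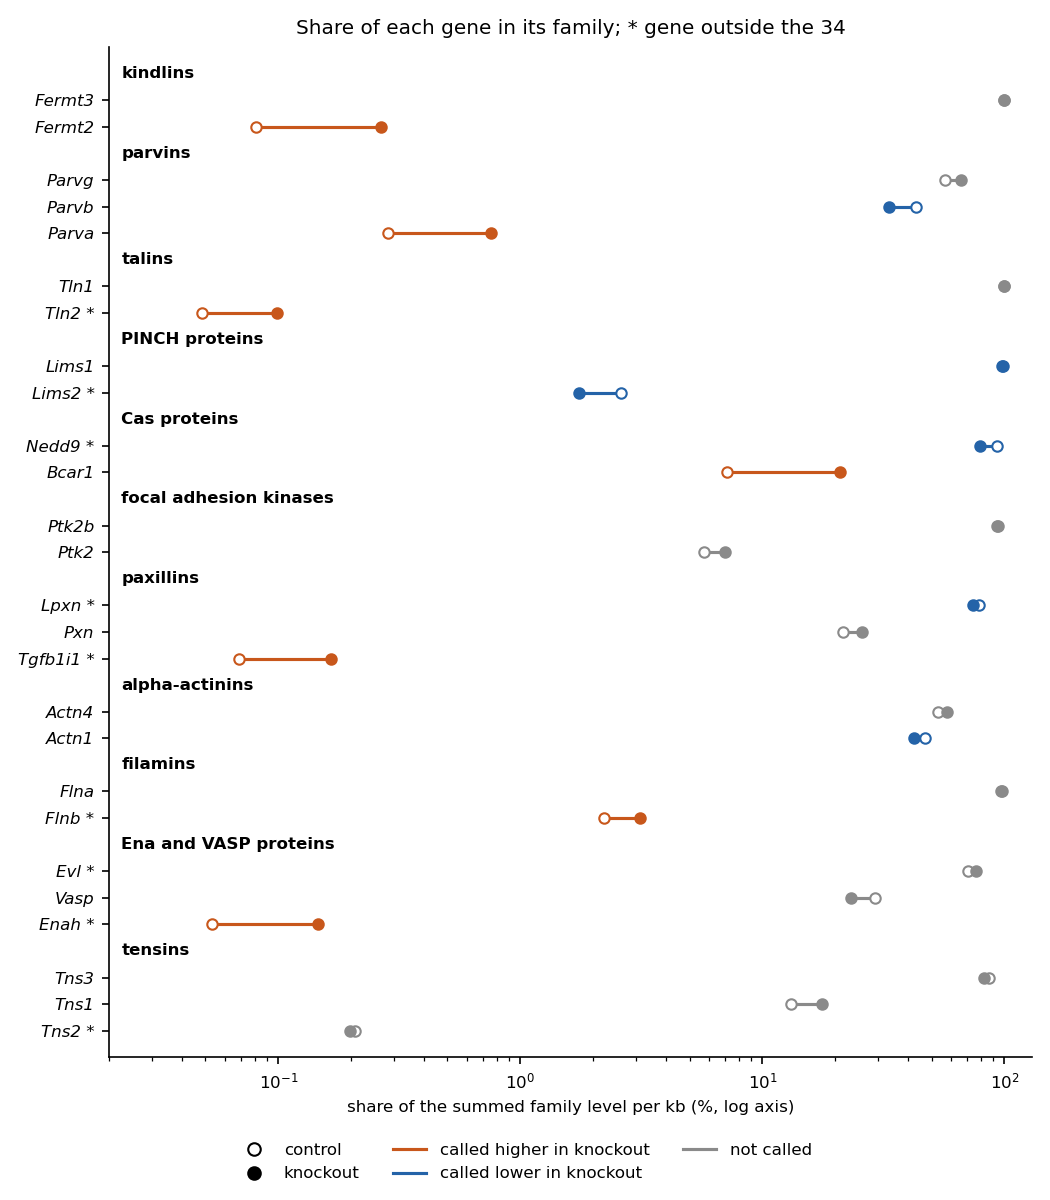
Share of each gene in the summed level per kb of its family (percent, log axis) in control (open points) and knockout cells (filled points), coloured by call, with an asterisk at genes outside the 34. Fermt2, Parva, Tln2, Tgfb1i1 and Enah are each under 1% of their family in both groups and were called higher. Tns2 is also under 1% in both groups and was not called.

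Families that hold an abundant and a scarce form were compared by share, after their values had been seen. The scarce forms Fermt2, Parva, Tln2, Tgfb1i1 and Enah, each under 1% of its family per kb in both groups, were all called higher. In the authors' deposited table Tln2 was at 1.08 (SE 0.31), Tgfb1i1, which encodes the paxillin relative Hic-5, at 0.95 (SE 0.28), and Enah, a relative of Vasp, at 1.57 (SE 0.24). The pattern was not general, since Tns2, at 0.208% of the tensins in control, was not called. Lims2, 2.61% of the PINCH level per kb in control, was lower, at -0.80 (SE 0.20), per the authors' deposited table. The stromal markers (16 of 17 called higher) moved with these scarce forms, and their part in these rises was not tested.

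The rest of the adhesion machinery was read from 7 further lists with 120 measured genes, of which 22 were called higher and 16 lower. That is 31.7%, against 23.0% of all genes tested, and the median log2 fold change of the 120 was -0.02. Of 11 other integrin chains 1 was called, Itga11, a collagen receptor chain of fibroblasts, which had 5.24 normalized counts in control and 36.7 in knockout and stood at 2.81 (SE 0.53) per the authors' deposited table. The median of the mean normalized counts of these 11 chains was 13.0, so the chains among the 34 make up nearly all integrin RNA measured here.

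Of 15 genes of inside-out activation, 3 were called higher and 2 lower, where 11.3% and 11.7% of all genes tested were. Rasgrp2, an exchange factor that loads Rap1 with GTP, rose from 225 to 581 normalized counts, at 1.37 (SE 0.15, adjusted p = 4.02e-18) per the authors' deposited table. Itgb1bp1, a protein that competes with talin for the beta tail, was at -0.19 (SE 0.05), and Rassf5, an effector of Rap1, at -0.26 (SE 0.09) per the authors' deposited table. Both lost their call after centring on summed group means (adjusted p = 0.065 and 0.0898). Rap1a, Rap1b and the Rap1 effector Apbb1ip were not called, at -0.05 (SE 0.06), -0.07 (SE 0.05) and -0.07 (SE 0.08) per the authors' deposited table, and fall outside the rule for named genes.

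Among 22 LIM, adaptor and scaffold genes, 2 were called higher and 4 lower, where 11.3% and 11.7% of all genes tested were. Lpp, a zyxin relative, was at 0.61 (SE 0.13) per the authors' deposited table. Of 21 kinases and genes of GTPase signalling, 1 was called higher and 4 lower. That is 23.8% called, near the 23.0% of all genes tested. Pak2, a kinase under Rac, was at 0.22 (SE 0.08), Csk, the kinase that inhibits Src, at -0.19 (SE 0.05), Rock1 at -0.16 (SE 0.05) and Rac1 at -0.15 (SE 0.06) per the authors' deposited table. The fifth, Pak1, outside the rule for named genes, was the largest at -0.26 (SE 0.10) per the authors' deposited table. Rock1 and Rac1 lost their calls after centring on summed group means (adjusted p = 0.159 and 0.237). Of 20 actin linkers and podosome genes, 5 were called higher and 2 lower, beside the same 11.3% and 11.7% over all genes. In the authors' deposited table Cttn, cortactin of podosomes, was at 0.62 (SE 0.17), Myl9, a myosin light chain of contractile cells, at 1.14 (SE 0.30) and Lsp1, an actin binder of leukocytes, at -1.06 (SE 0.19).

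Integrin ligands were the list with the most calls higher, 10 of 20, with 1 lower and a median log2 fold change of 0.43. Over all genes tested 11.3% were called higher and 11.7% lower. Tnc, tenascin C, rose from 195 to 681 normalized counts, at 1.80 (SE 0.18, adjusted p = 2.79e-20), Fbln2, fibulin 2, was at 1.82 (SE 0.31) and Nid1, nidogen 1, at 1.62 (SE 0.29) per the authors' deposited table. Col1a1, a collagen I chain at 2.09 (SE 0.30) per the authors' deposited table, also belongs to the stromal markers, 16 of 17 of which were called higher. Abundant ligands were divided. Mfge8, a bridge to dying cells with a mean of 23323, was called higher at 0.30 (SE 0.08), and Cd47, a ligand of SIRP alpha with a mean of 21790, was the 1 called lower, at -0.36 (SE 0.11), per the authors' deposited table. Spp1, osteopontin, with a mean of 520288, was not called at 0.40 (SE 0.39), nor was Thbs1, thrombospondin 1, at 0.26 (SE 0.16), per the authors' deposited table. These 4 ligands fall outside the rule for named genes.

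Tetraspanins and other partners of integrins gave 0 calls higher and 3 lower of 11, beside 11.3% and 11.7% of all genes tested. Cd151, the tetraspanin that binds laminin receptors, fell from 5105 to 3091 normalized counts, at -0.72 (SE 0.05, adjusted p = 6.01e-41) per the authors' deposited table. Cd37, a tetraspanin of leukocytes, was at -0.38 (SE 0.06) and Cd82 at -0.21 (SE 0.07) per the authors' deposited table, and Cd82 lost its call after centring on summed group means (adjusted p = 0.0982).

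**Figure D5:**
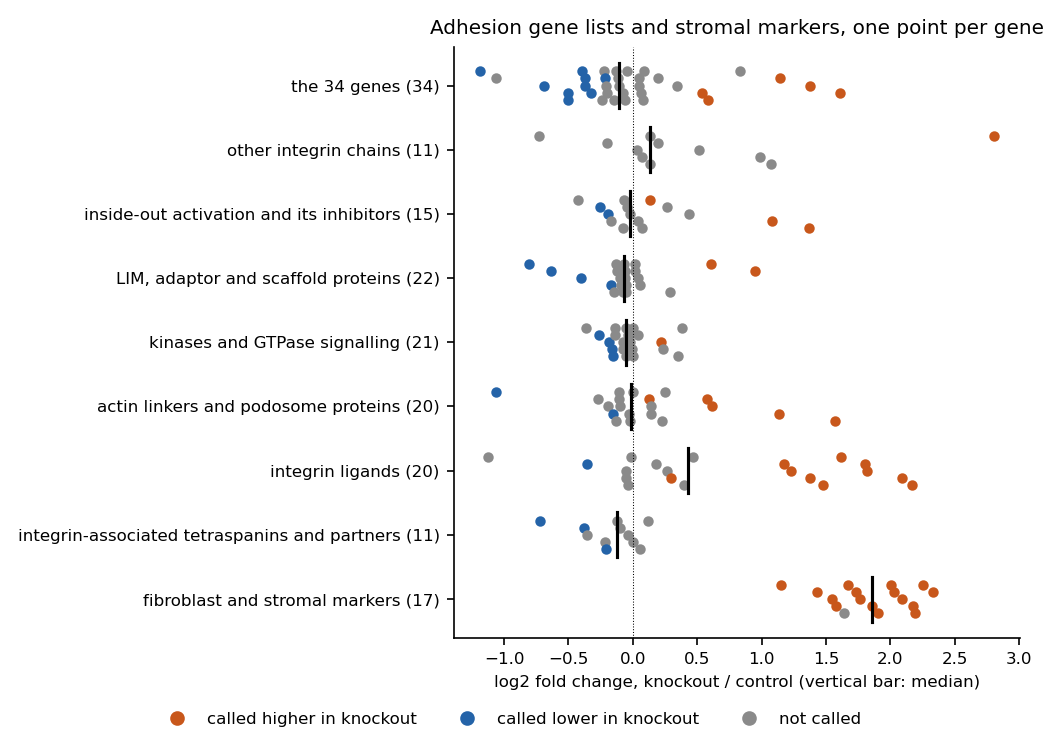
Log2 fold change of each gene (points, coloured by call) in the 34 genes, in 7 further adhesion lists and in the stromal markers, with the number of genes in brackets and the median as a black bar. Medians lie between -0.12 and 0.14 except for integrin ligands at 0.43 and stromal markers at 1.86.

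The deleted clusters encode miRNAs, which bind messages through bases 2 to 8, the seed, and lower their level or translation. The 34 genes were therefore searched for matches of these seeds in the longest annotated 3' UTR. The mature sequences (RefSeq, GRCm38.p6) are given to show what was searched, with the seed in capitals, and the seeds of miR-23 and miR-27 share their first 5 bases.
mmu-miR-23a-3p: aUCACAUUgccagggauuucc
mmu-miR-27a-3p: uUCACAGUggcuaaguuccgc
mmu-miR-27b-3p: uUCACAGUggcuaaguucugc
mmu-miR-24-3p: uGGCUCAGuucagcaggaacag

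Matches of miR-23 and miR-27 were less frequent in the adhesion genes than over all genes, while those of miR-24 were near the share of all genes. Counting 7-nucleotide matches of bases 2 to 8, with or without an A opposite base 1 (the 8-nucleotide match), 9 of the 34 genes (26.5%) had a site for at least 1 of the 3 miRNAs, against 40.8% of the 13094 tested genes with an annotated 3' UTR. For miR-23 it was 1 gene of 34 (2.94%, against 16.7% of all), for miR-27 3 genes (8.82%, against 17.4%) and for miR-24 7 genes (20.6%, against 19.2%). Of the 9 genes 1 was called higher and 1 lower, where 15.8% of all genes with a site were called higher and 10.1% lower. The 25 genes without a site gave 4 calls higher and 8 lower, where the shares over all such genes were 9.50% and 14.4%. Of the 14 called adhesion genes 12 held no such site, among them Itgb2, Itgb7, Ilk, Fermt2, Parva, Bcar1 and Vcl. Called or not, 73.5% of the 34 genes held none, as did 59.2% of all tested genes with an annotated 3' UTR.

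The sites of the called genes and of 2 abundant genes that were not called are printed below, with the match in capitals, 10 bases on either side and the strand of the message. Src was the called rise with a site and Itga5 the called fall.
Src, miR-24, chr2:157470771-157470778 (plus strand, exon 14): aagcaggaggCTGAGCCAggagcgaggg
Itga5, miR-27, chr15:103345082-103345089 (minus strand, exon 30): ccccccatgcACTGTGAAggaccctcgt
Itga4, miR-27, chr2:79328847-79328854 (plus strand, exon 28): ttactatctcACTGTGAAgtctgagatt
Itga4, miR-24, chr2:79332769-79332776 (plus strand, exon 28): atactcctagCTGAGCCAcaagccagca
Fermt3, miR-24, chr19:6999153-6999160 (minus strand, exon 15): atgatgggccCTGAGCCAcacagagccc

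All 5 are 8-nucleotide matches in a 3' UTR (GENCODE M21, mm10). Src, with a miR-24 match at base 810 of a 3' UTR of 1901 bases, was higher at 0.58 (SE 0.10) per the authors' deposited table. Itga5, with a miR-27 match at base 180 of 983, was lower at -0.69 (SE 0.18) per the authors' deposited table. Itga4 carries 8-nucleotide matches of both miR-27 and miR-24 in a 3' UTR of 6508 bases and stood at 10669 normalized counts in control and 10135 in knockout. Fermt3 has its match 181 bases into a 3' UTR of 383 bases and was not called. The remaining genes with a site, Itga9, Tns1, Flna, Parvg and Ptk2b, were not called either. A match is a run of letters, and binding was not measured.

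Promoters from RefSeq (GRCm38.p6) were found for 26 of the 34 genes and searched on both strands for 6 motifs, chosen after the calls were known. The window runs from upstream of the start site into the first bases of the gene. The CArG box, bound by serum response factor in genes of actin and adhesion, was present in 2 of the 4 called-higher genes that had a promoter (Fermt2 and Vcl), in 0 of 7 called lower and in 0 of 15 not called. It occurred in 1.63% of all 32851 promoter windows. For each motif a gene counted if any of its windows held it. The share over all promoters is per single window, so the units differ. Both boxes are shown in capitals with 10 bases on either side.
Vcl, chr14:20929161-20929190 (plus strand): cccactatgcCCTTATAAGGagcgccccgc
Fermt2, chr14:45530250-45530279 (minus strand): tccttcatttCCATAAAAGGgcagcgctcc

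Counted from the RefSeq start site, the box ends 217 bases upstream in Vcl and 194 bases upstream in Fermt2, whose RefSeq start differs from the GENCODE start given above. Counts for the other 5 motifs follow, and no split between the 4 higher and 7 lower genes was tested for any motif. GAGGAA, a core of sites for the myeloid factor PU.1, was present in 1 of 4 genes called higher, 3 of 7 lower and 5 of 15 not called, against 28.3% of all windows. GGAAGT, a core of ETS factors that can overlap GAGGAA, gave 0, 3 and 4 genes against 23.8%. GGAATG of TEAD factors gave 1, 0 and 3 against 14.7%, CAGCTG, an E-box, gave 0, 3 and 3 against 16.3%, and TGANTCA of AP-1 gave 0, 0 and 4 against 7.81%. These are counts of letters in short windows.

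None of the 34 genes lies near an altered locus. The nearest to the Mirc11 cluster on the same chromosome was Bcar1 at 27.5 Mb, and the nearest to Lyz2 was Itgb2 at 39.7 Mb. No gene of the 34 is on chromosome 13, which carries Mirc22.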

How the data were processed

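The members and lists were chosen with earlier results of these data known. The submitters' processing notes list Salmon, DESeq2, cutadapt and FastQC and the build mm10, without versions or roles. Per the file headers, the authors' table holds a signal (the mean normalized count over all libraries), a log2 fold change with its SE, a Wald score, and a p-value before and after adjustment. The header does not name the numerator, so the direction was read from Lyz2. The deposited score equalled fold change over SE to within 1.12e-07, and a recomputed Benjamini-Hochberg adjustment met the deposited adjusted p-value to within 5.66e-09. A further 8 columns, each of 1 library, match no sample label and were not used, so the planned limma fit was not run.

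Control means were computed as 2 times the mean over 1 plus the fold, and 95% intervals from the SE, both in Python 3.11.15 with scipy 1.17.1. Positions, transcript lengths and 3' UTRs came from GENCODE M21, matched by symbol (34 of 34 genes, and 95.8% of the table). Genes outside the 34 were named by rule: up to 4 called genes per adhesion list and 2 per marker list with the smallest adjusted p. Others are said to be outside it, apart from Fn1, Csf1r, Adgre1, Cd68, Cd4, Cd8a, Lck, Trac, Tgfb1i1 and other members of compared families. Alternatives were other filters, 2 centrings, a stricter threshold, other kinds of site and another gene length. The code for calls and site searches was run on simulated data with planted changes and planted sites. That tests the code and not the calls made here. A further comparison by share is not reported here.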

Additional observations from a re-analysis of the deposited data

How the results depend on the processing

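Of the 14 adhesion genes called, 10 were called under all 5 alternatives for filter, scaling and threshold: Bcar1, Fermt2, Ilk, Itga5, Itga6, Itgb2, Itgb7, Parva, Parvb and Src. Itgb5 was lost without a filter, with centring on summed group means and at an adjusted p under 0.01, Actn1 and Lims1 under the latter 2, and Vcl at the stricter threshold alone. Genes called lower thus ranged from 6 to 9 and those called higher from 4 to 5, and 0 genes were gained. Centring on summed group means subtracted a log2 shift of -0.06 from every gene and turned the split over all genes from 1651 higher and 1712 lower to 2339 and 960. Under it Pxn and Actn4, not called, changed sign. It left 8 of the other adhesion genes called lower in place of 16, and the threshold of 0.01 left 9. Counting also 7-nucleotide matches of bases 2 to 7 with an A gave 2 adhesion genes with a site called lower, Lims1 being added. With levels per kb of all exons joined, 26 genes lay at or above the median of all genes, as with the longest transcript. No paired analysis was possible because no column with a value for each library could be tied to a sample label. For this reason the planned limma fit, the replicate block and leaving out single libraries were not run. Depth per library is unknown, and the smallest means (Bcar1, Fermt2, Parva) carry the largest SE among the called genes.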
